A study of Homo sapiens with 6 samples.

Results

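The Notch receptors NOTCH1, NOTCH2 and NOTCH3, the ligands JAG1 and JAG2, the nuclear factors RBPJ and MAML1, the inhibitor NUMB and the HES family genes HES1 and HES6 were followed in androgen-independent prostate cancer cells after knockdown of the long non-coding RNA PCAT1. Members were the rows of the transcript table that carried 1 of these 10 gene names, which gave 27 transcripts of 29091 and 10 genes of 11848. To ask which mRNAs respond to PCAT1 in a model of castration-resistant disease, the study sequenced RNA from 3 samples of LNCaP-AI cells transfected with an shRNA against PCAT1 (shPCAT1) and 3 transfected with a scramble shRNA (shSCR). LNCaP-AI is a single line, derived from LNCaP human prostate cancer cells by long culture in androgen-deprived, charcoal-stripped serum, and all 6 samples share this background. The labels number the replicates without stating that they were separate cultures, so p-values here rest on a spread between samples that may be technical only. The level of PCAT1 was not analysed here, and how far it was lowered is therefore not known from these data. Levels are in FPKM, the fragment count of a transcript normalised to its length and to the size of the library, and the value of a gene is the sum over its listed transcripts.

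In Notch signaling, a ligand such as JAG1 or JAG2 on 1 cell binds a NOTCH receptor on its neighbour, and proteases then release the intracellular part of the receptor. That part enters the nucleus, joins the DNA-binding protein RBPJ and the coactivator MAML1, and switches on target genes, of which the repressor HES1 is the classic example. NUMB is an endocytic adaptor that restrains the receptors. In prostate epithelium the pathway is known for its part in cell fate choices between basal, luminal and neuroendocrine states.

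Replicate 3 of shSCR differed from all other libraries. Across the genes tested its Pearson correlation with the other libraries was 0.809 to 0.845, against 0.910 to 0.946 among the other 5 (across genes, which are not independent replicates). Relative to shSCR replicates 1 and 2, its median difference was 0.89 on the log2(FPKM + 1) scale for 1732 genes of over 60% GC and -0.27 for 5819 genes of under 50% GC. Of the 10 Notch genes, 5 had their highest value in this library and 3 their lowest, so the changes of the 10 genes are given with and without it. Of luminal prostate markers, KLK3, KLK2, TMPRSS2, FOLH1, KRT8 and KRT18 (6 of 6 reported) were listed, and their summed level was 973 to 1061 FPKM in shPCAT1 and 1237 to 1594 FPKM in shSCR samples. Basal markers summed to 1.27 to 1.65 FPKM in shPCAT1 and 1.59 to 2.51 FPKM in shSCR samples (KRT5 and KRT14, 2 of 4 looked for), and stromal markers to 15.2 to 21.4 FPKM in shPCAT1 and 14.3 to 30.1 FPKM in shSCR samples (VIM, COL1A1 and ACTA2, 3 of 6). The other basal and stromal markers and all 4 leukocyte markers were not in the table used here. The part of the lower luminal sum in the results was not tested.

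JAG1 and NOTCH3 were the members that stood lowest in shPCAT1 cells relative to their spread. JAG1 was at 0.654 and NOTCH3 at 0.447 of the shSCR mean, and NOTCH2 and HES1 were also lower in every shPCAT1 sample than in any shSCR sample. With all 6 libraries, 0 of the 10 members passed an adjusted p of 0.05 in limma, where 0.878% of all 10825 genes tested did. At an unadjusted p of at most 0.05, 2 members were lower, against 10.0% of all genes, and 0 were higher, against 7.23%. The groups did not overlap for 4 members that were lower, against 17.7% of all genes, and for 0 that were higher, against 14.8%. Without shSCR replicate 3, limma called 2 members lower (JAG1 and NOTCH3) and 0 higher, where 4.4% of all genes were called lower and 3.63% higher. The median log2 change of the 10 members was -0.24, and that of all genes tested was -0.05. In bulk RNA, fewer cells that express a gene and less of its RNA per cell cannot be told apart.

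**Figure D1:**
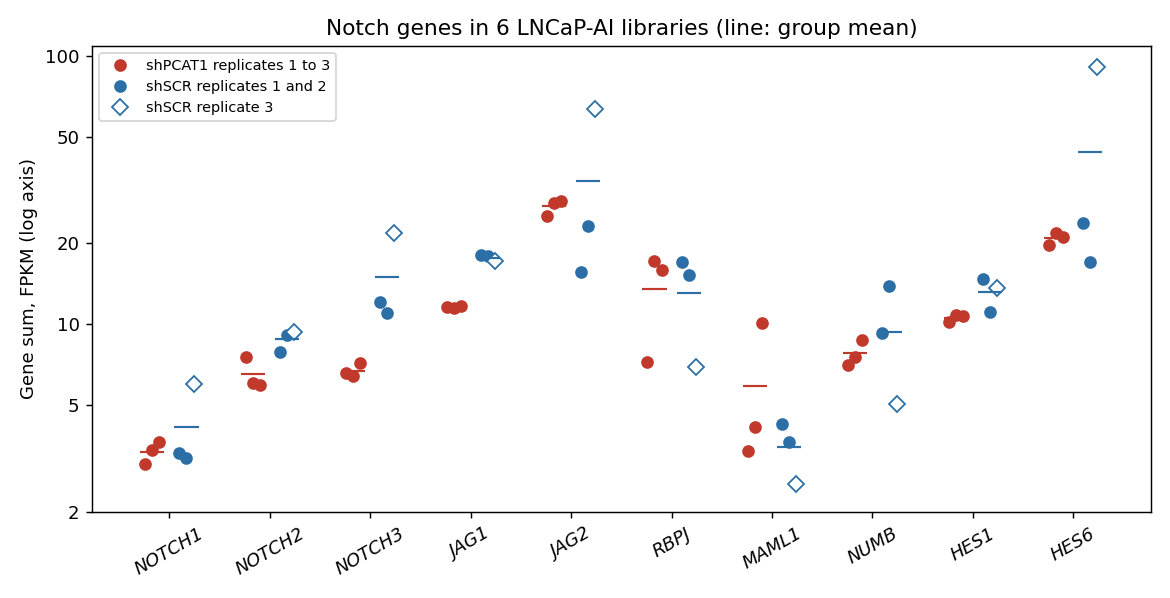
Level of each of the 10 Notch genes in FPKM (log axis), 1 point per sample, with shPCAT1 left of shSCR a bar at the group mean and an open diamond for shSCR replicate 3. The shPCAT1 points of JAG1, NOTCH3, NOTCH2 and HES1 all lie below the shSCR points, and shSCR replicate 3 lies far above the rest for JAG2 (63.4) and HES6 (91.0).

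FPKM is scaled by length but not by GC content, so an order of the genes by level is approximate. In shPCAT1 cells JAG2 was highest, at 25.4 to 28.9 FPKM, followed without overlap by HES6 at 19.7 to 21.9, JAG1 at 11.5 to 11.7 and HES1 at 10.2 to 10.8 FPKM. NUMB (7.02 to 8.75), NOTCH3 (6.40 to 7.17) and NOTCH2 (5.96 to 7.53) overlapped one another, and NOTCH1 was lowest at 3.03 to 3.63 FPKM. RBPJ (7.25 to 17.3) and MAML1 (3.37 to 10.1) varied too much between the shPCAT1 samples to be placed. This order does not hold in shSCR samples, where JAG2 (15.6 to 63.4), HES6 (17.1 to 91.0) and JAG1 (17.1 to 18.0 FPKM) overlapped.

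Among the receptors, every shPCAT1 value of NOTCH3 and NOTCH2 lay below the shSCR values, and those of NOTCH1 did not. NOTCH3, whose highest transcript lies on the minus strand of chromosome 19 (15269849 to 15311792, hg19, 33 exons), had 6.56, 6.40 and 7.17 FPKM in shPCAT1 samples, against 12.1, 11.1 and 21.8 FPKM in shSCR samples. The shPCAT1 values were close together and all below the shSCR values, of which replicate 3 was the highest. The log2 change was -0.99 (SE 0.27, adjusted p = 0.167 by limma), and without shSCR replicate 3 it was -0.71 (SE 0.09, adjusted p = 0.0279), so the gene was called lower only in the smaller set. NOTCH3 has a GC content of 63.1% and was 0.86 higher on the log2 scale in shSCR replicate 3 than in shSCR replicates 1 and 2. After each library's trend with GC content was removed, the change was -0.59 with all libraries (adjusted p = 0.0671, not called) and -0.58 without that replicate (adjusted p = 0.0385), the second a setting chosen after seeing the data. NOTCH3 and JAG1 are among the genes the study itself picked on these samples as lowered, so their direction is not independent evidence.

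NOTCH2 (chromosome 1, 120454176 to 120612240, minus strand, 34 exons) had 7.53, 6.07 and 5.96 FPKM in shPCAT1 samples, against 7.90, 9.14 and 9.37 FPKM in shSCR samples. The groups did not overlap, but shPCAT1 replicate 1 lay close to shSCR replicate 1. The change of -0.39 (SE 0.16) did not pass the test (adjusted p = 0.299), nor did -0.34 without shSCR replicate 3 (adjusted p = 0.199). Part of NOTCH2 is near-identical to the NOTCH2NL copies on the same chromosome, so reads may have been split between them and the level is uncertain. NOTCH1 (chromosome 9, 139388896 to 139440314, minus strand) had 3.03, 3.39 and 3.63 FPKM in shPCAT1 samples, against 3.30, 3.17 and 5.99 FPKM in shSCR samples. Only shSCR replicate 3 stood above the shPCAT1 range. The change was -0.20 (95% interval -0.81 to 0.40) with all libraries and 0.04 (-0.26 to 0.33) without that replicate.

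The ligands did not share a pattern. JAG1, on the minus strand of chromosome 20 (10618332 to 10654755, 26 exons), is a membrane ligand of the NOTCH receptors. Its level was 11.6, 11.5 and 11.7 FPKM in shPCAT1 samples, against 18.0, 18.0 and 17.1 FPKM in shSCR samples. Replicates differed by little within either group (mean 11.6 ± 0.0729 in shPCAT1 and 17.7 ± 0.501 FPKM in shSCR; SD, n = 3 each), and shSCR replicate 3 did not stand apart here. JAG1 has a GC content of 49.6%, and its value in shSCR replicate 3 differed from those of replicates 1 and 2 by -0.07 on the log2 scale. The log2 change was -0.57 (SE 0.13, adjusted p = 0.128 by limma) with all 6 libraries and -0.59 (SE 0.06, adjusted p = 0.0215) without shSCR replicate 3. The size of the difference was therefore nearly the same in both fits, and the call was made only without that library. In limma the variance of a gene is drawn towards that of other genes of like level. The SE and p of JAG1 therefore do not measure its own spread alone.

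JAG2, the other ligand, lies on the minus strand of chromosome 14 (105607318 to 105635161, 26 exons). Its level was 25.4, 28.3 and 28.9 FPKM in shPCAT1 samples, against 15.6, 23.2 and 63.4 FPKM in shSCR samples. The lowest and the highest value both belonged to shSCR, and the shPCAT1 values lay between them. The change was -0.05 (SE 0.49, adjusted p = 0.963) with all libraries and 0.51 (SE 0.19, adjusted p = 0.177) without shSCR replicate 3, so its direction turned with 1 library. The GC content of JAG2 is 64.1%, and the gene was 1.68 higher on the log2 scale in shSCR replicate 3 than in the other shSCR libraries.

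**Figure D2:**
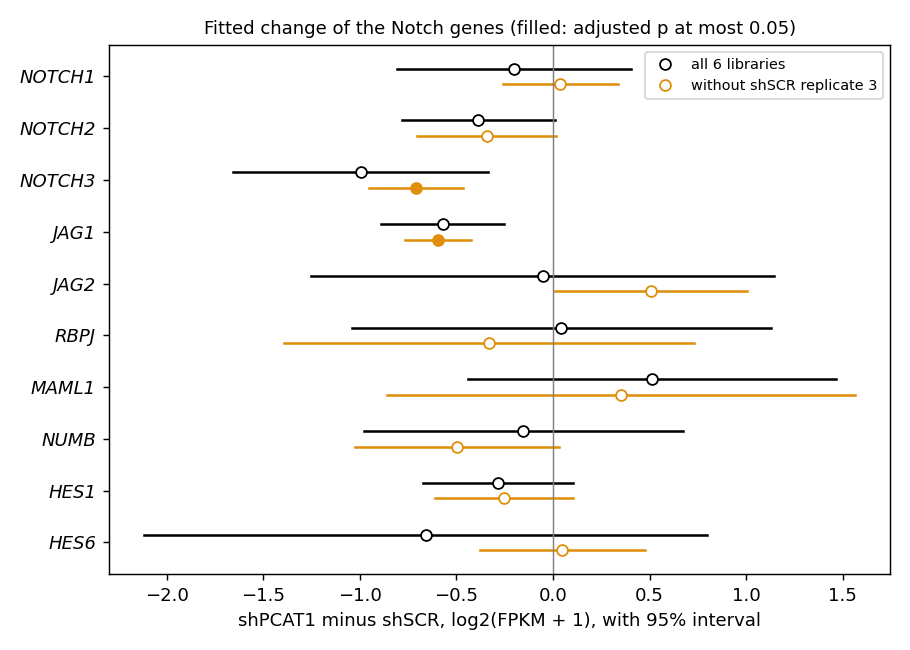
Log2 change of each Notch gene, shPCAT1 minus shSCR, on log2(FPKM + 1), with its 95% interval from limma, for all 6 libraries and without shSCR replicate 3. The intervals of JAG1 and NOTCH3 lie below 0 in both fits, while JAG2, HES6, NOTCH1 and RBPJ change sign when that library is left out.

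JAG2 was listed as a pair of transcripts that differ by 1 coding exon. JAG2-002 lacks exon 10 of JAG2-001, an exon of 114 bases (chr14:105617328-105617441, minus strand, GRCh37) with 6 cysteine codons among its 37 whole codons. Cysteines at this density mark the EGF-like repeats of the ligand's extracellular part. The exon is shown in capitals with 10 intron bases at each side in lower case.
JAG2 exon 10: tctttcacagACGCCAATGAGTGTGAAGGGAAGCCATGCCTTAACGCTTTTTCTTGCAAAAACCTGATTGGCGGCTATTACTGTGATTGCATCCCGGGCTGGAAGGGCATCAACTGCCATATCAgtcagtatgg
JAG2-002 held 27.3%, 30.8% and 38.9% of the gene's FPKM in shPCAT1 samples, against 28.9%, 21.3% and 55.2% in shSCR samples. The ranges overlapped, and the extreme values were both in shSCR. As a level, JAG2-002 was at 6.94, 8.74 and 11.2 FPKM in shPCAT1 samples, against 4.52, 4.93 and 35.0 FPKM in shSCR samples. JAG2-001 was at 18.4, 19.6 and 17.6 FPKM in shPCAT1 samples, against 11.1, 18.2 and 28.4 FPKM in shSCR samples. Both transcripts were highest in shSCR replicate 3, and JAG2-002 more so.

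The nuclear partners of the receptor showed no difference beyond their spread. RBPJ, the DNA-binding protein of the pathway (chromosome 4, 26322429 to 26436750, plus strand, 11 exons), had 7.25, 17.3 and 16.0 FPKM in shPCAT1 samples, against 17.1, 15.3 and 6.91 FPKM in shSCR samples. In each group 1 library was low, replicate 1 of shPCAT1 and replicate 3 of shSCR. The change was 0.04 (95% interval -1.04 to 1.13) with all libraries and -0.33 (-1.39 to 0.73) without shSCR replicate 3, and it was also below 0 without shPCAT1 replicate 2 (-0.17) or 3 (-0.11). RBPJ has processed pseudogenes elsewhere in the genome, so its reads may be shared and its level is uncertain. MAML1, the coactivator (chromosome 5, 179159851 to 179204287, plus strand, 5 exons), had 3.37, 4.15 and 10.1 FPKM in shPCAT1 samples, against 4.26, 3.63 and 2.53 FPKM in shSCR samples. Its mean was raised by shPCAT1 replicate 3 alone, and the other shPCAT1 values lay within or near the shSCR range. The change was 0.51 (SE 0.39, adjusted p = 0.514) with all libraries and 0.35 (adjusted p = 0.658) without shSCR replicate 3, and without shPCAT1 replicate 3 it was 0.10.

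The transcripts of RBPJ differed between libraries. RBPJ-003 was listed at 0 in all 3 shPCAT1 samples, against 0.222, 4.61 and 3.80 FPKM in shSCR samples. The groups did not overlap, although shSCR replicate 1 was close to 0, and limma gave an unadjusted p of 0.0377 and an adjusted p of 0.515 (0.109 and 0.444 without shSCR replicate 3). RBPJ-003 passed the filter at a mean of 1 FPKM through its shSCR values alone, so it could only come out lower. The gene's highest transcript, RBPJ-202, had 3.48, 9.85 and 9.02 FPKM in shPCAT1 samples, against 8.68, 3.36 and 0 FPKM in shSCR samples. Its share of the RBPJ sum was 48.1%, 57.0% and 56.4% in shPCAT1, against 50.7%, 21.9% and 0% in shSCR, and shSCR replicate 1 resembled the shPCAT1 samples in this. RBPJ-003 and RBPJ-202 have different first exons and nearly equal coding parts (1458 and 1461 bases), and a listed 0 can be a failed estimate where transcripts share most of their sequence. RBPJ-030 ranged from 2.28 to 3.52 FPKM in shPCAT1 and from 0.592 to 3.55 FPKM in shSCR samples, and RBPJ-201 from 0.358 to 4.16 FPKM in shPCAT1 and from 1.87 to 2.05 FPKM in shSCR samples.

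NUMB, the receptor inhibitor (chromosome 14, 73741924 to 73925228, minus strand, 12 exons in NUMB-003), had 7.02, 7.58 and 8.75 FPKM in shPCAT1 samples, against 9.27, 13.8 and 5.05 FPKM in shSCR samples. The shPCAT1 values lay below shSCR replicates 1 and 2 and above replicate 3. The change was -0.15 (SE 0.34, adjusted p = 0.824) with all libraries and -0.50 (SE 0.20, adjusted p = 0.204) without shSCR replicate 3, while without shSCR replicate 2 it was 0.15. NUMB has a GC content of 46.3% and RBPJ 37.2%, and both were lower in shSCR replicate 3 than in shSCR replicates 1 and 2, by -1.03 and -1.12 on the log2 scale.

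NUMB is made in forms with and without a long coding exon that adds to its proline-rich part. In these models it is exon 12 of NUMB-004 (chr14:73745989-73746132, minus strand, GRCh37), present in NUMB-003 and NUMB-004 and absent from NUMB-001 and NUMB-002. It holds 144 bases, in capitals here between lower-case intron bases, and 5 proline codons.
NUMB exon 12: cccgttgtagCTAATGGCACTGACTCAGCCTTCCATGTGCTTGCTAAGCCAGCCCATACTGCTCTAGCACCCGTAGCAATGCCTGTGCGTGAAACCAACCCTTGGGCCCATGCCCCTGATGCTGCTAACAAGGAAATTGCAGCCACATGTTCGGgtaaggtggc
The transcripts with this exon held 59.7%, 50.5% and 69.2% of the NUMB sum in shPCAT1 samples, against 68.9%, 82.7% and 22.8% in shSCR samples. The ranges overlapped, and without shSCR replicate 3 the difference in mean share was -16.0 percentage points, though shPCAT1 replicate 3 still lay above shSCR replicate 1. NUMB-003 ranged from 1.94 to 3.50 FPKM in shPCAT1 and from 0.552 to 5.42 FPKM in shSCR samples. NUMB-004 ranged from 1.89 to 2.56 FPKM in shPCAT1 and from 0.599 to 6.03 FPKM in shSCR samples, and NUMB-001 from 1.53 to 1.98 FPKM in shPCAT1 and from 1.27 to 2.23 FPKM in shSCR samples. In NUMB-003 and NUMB-004 the lowest value of all was that of shSCR replicate 3.

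**Figure D3:**
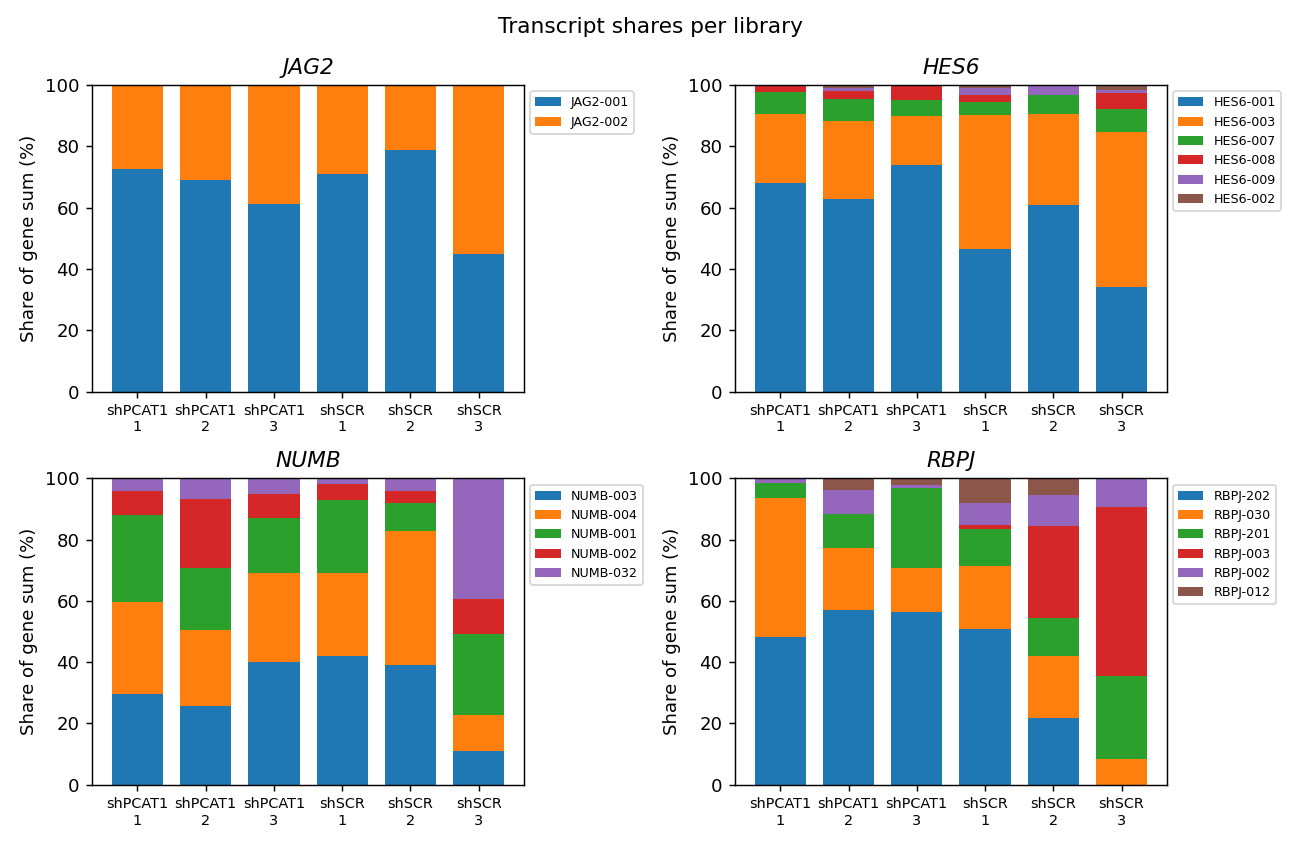
Share of a gene's FPKM held by each of its listed transcripts, in percent, for HES6, JAG2, NUMB and RBPJ, with 1 stacked bar per sample and the shPCAT1 samples left of the shSCR samples. HES6-003 takes 16.0% to 25.4% in shPCAT1 and 29.7% to 50.6% in shSCR samples, and RBPJ-202 is listed at 0 in shSCR replicate 3.

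HES1, the classic target and a bHLH repressor, lies on the plus strand of chromosome 3 (193853934 to 193856521, 4 exons). It had 10.2, 10.8 and 10.7 FPKM in shPCAT1 samples, against 14.7, 11.1 and 13.7 FPKM in shSCR samples. The shPCAT1 values were narrowly spread, and the nearest shSCR sample, replicate 2, was only slightly above them. The change of -0.29 (SE 0.16) did not pass the test (adjusted p = 0.408), and without shSCR replicate 3 it was -0.25 (adjusted p = 0.303). The interval with all libraries, -0.68 to 0.11, covers no change.

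RBPJ recognises sites with the core TGGGAA, and this core was looked for on both strands in the 250 bases before each RefSeq gene start (GRCh38.p14). All 10 members matched the promoter table. HES1 (chr3:194135898-194136147, plus strand) has 2 cores, starting 84 and 70 bases before the start. HES4 (chr1:1000098-1000347, minus strand), a related target of the wider list described further on, has 1 core, 76 bases before its start. HES7 and NRARP, also targets of that list, were searched as well, and the core is not in their windows. The promoters of HES1 and HES4 are shown because they hold the core, in capitals.
HES1: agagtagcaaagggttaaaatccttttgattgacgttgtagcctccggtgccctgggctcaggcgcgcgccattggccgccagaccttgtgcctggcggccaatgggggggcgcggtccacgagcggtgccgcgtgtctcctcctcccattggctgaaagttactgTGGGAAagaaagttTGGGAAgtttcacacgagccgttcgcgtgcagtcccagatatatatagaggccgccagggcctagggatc
HES4: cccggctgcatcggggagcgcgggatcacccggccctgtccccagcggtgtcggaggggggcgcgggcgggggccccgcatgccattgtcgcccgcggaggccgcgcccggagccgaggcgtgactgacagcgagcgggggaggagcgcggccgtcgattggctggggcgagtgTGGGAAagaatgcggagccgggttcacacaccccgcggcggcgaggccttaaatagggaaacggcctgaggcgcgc
At least 1 core was found in 20.8% of 35116 promoters of the same length, and at least 2 in 2.9%. Of the other members, RBPJ has 2 cores at 1 of its 5 starts, 115 and 72 bases before it, and in the remaining promoters these letters are not in the window.

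HES6 (chromosome 2, 239146908 to 239148765, minus strand, 4 exons) belongs to the same family but is known to oppose HES1, and it is linked to neuroendocrine features of prostate cancer. Its level was 19.7, 21.9 and 21.1 FPKM in shPCAT1 samples, against 23.9, 17.1 and 91.0 FPKM in shSCR samples. The shPCAT1 values lay between those of shSCR replicates 1 and 2, and only shSCR replicate 3 stood far above. The change was -0.66 (SE 0.60, adjusted p = 0.577) with all libraries and 0.05 (95% interval -0.38 to 0.47) without shSCR replicate 3, and with the GC correction it was -0.17. HES6 has the highest GC content of the 10 members, 66.2%. Summed neuroendocrine markers were 16.1 to 21.8 FPKM in shPCAT1 and 21.0 to 27.8 FPKM in shSCR samples, but only SYP and ENO2 of 6 such markers were in the table used here (CHGA, CHGB, NCAM1 and INSM1 were not analysed).

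The shares of the main HES6 transcripts did not overlap between the groups, although the HES6 sum did. HES6-003 held 22.5%, 25.4% and 16.0% of the HES6 sum in shPCAT1 samples, against 44.0%, 29.7% and 50.6% in shSCR samples. The principal form, HES6-001, held 67.9%, 62.9% and 73.9% in shPCAT1, against 46.4%, 61.0% and 34.0% in shSCR. The ranges did not overlap for either transcript, with or without shSCR replicate 3, but shPCAT1 replicate 2 and shSCR replicate 2 lay close together in both. HES6-001 and HES6-003 hold most of the HES6 sum, so a higher share of 1 goes with a lower share of the other. These shares are descriptions with no test, and non-overlapping shares were not counted over all genes. HES6-003 keeps the last intron of HES6-001 as coding sequence, 235 bases with a GC content of 80.4% (chr2:239147893-239148127, minus strand, GRCh37), shown here in capitals between lower-case exon bases.
HES6 retained intron: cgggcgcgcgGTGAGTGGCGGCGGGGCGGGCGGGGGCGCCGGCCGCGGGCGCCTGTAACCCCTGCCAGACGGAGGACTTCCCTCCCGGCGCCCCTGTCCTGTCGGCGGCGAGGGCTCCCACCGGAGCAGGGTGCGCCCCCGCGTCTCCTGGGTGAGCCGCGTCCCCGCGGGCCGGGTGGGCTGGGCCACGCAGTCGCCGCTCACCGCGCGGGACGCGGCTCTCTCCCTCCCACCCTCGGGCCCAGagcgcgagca
As levels, HES6-003 was at 4.44, 5.57 and 3.39 FPKM in shPCAT1 samples, against 10.5, 5.06 and 46.1 FPKM in shSCR samples, a change of -1.46 (adjusted p = 0.568), and of -0.63 (adjusted p = 0.486) without shSCR replicate 3. HES6-001 was at 13.4, 13.8 and 15.6 FPKM in shPCAT1 samples, against 11.1, 10.4 and 30.9 FPKM in shSCR samples. HES6-003 was thus not separated between the groups as a level, and the part of its GC-rich intron in its high value in shSCR replicate 3 was not tested. HES6-007 and HES6-008 were lower, at 0.416 to 1.56 FPKM in shPCAT1 and 0 to 6.96 FPKM in shSCR samples. HES6-008 averaged 0.649 FPKM in shPCAT1 and 1.76 FPKM in shSCR samples, so it passed the filter through its shSCR values alone.

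**Figure D4:**
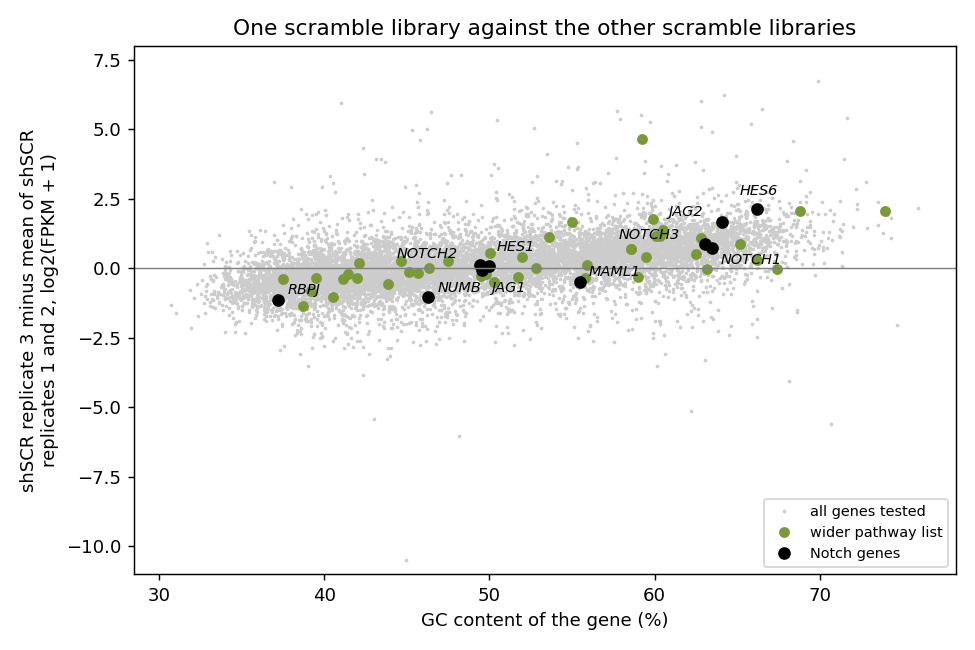
Difference of shSCR replicate 3 from the mean of shSCR replicates 1 and 2, on log2(FPKM + 1), against the GC content of the gene in percent. Each grey point is a gene, green points are the wider pathway list and the named black points are the Notch genes, and the difference climbs with GC content, from RBPJ (37.2% GC, -1.12) and NUMB to JAG2 and HES6 (66.2% GC, 2.12).

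At the level of transcripts, 20 of the 27 had a mean of at least 1 FPKM and were tested, and limma called 0 of them, against 0.0977% of all 20474 tested. JAG1-002, NOTCH3-001 and RBPJ-003 were lower at an unadjusted p no higher than 0.05, against 4.92% of all transcripts, and 0 were higher. For 4 tested transcripts the groups did not overlap with shPCAT1 lower, against 11.2% of all, and for 0 with shPCAT1 higher, against 11.3%. RBPJ-003 is in both lower counts. It averaged 0 FPKM in shPCAT1 and 2.88 FPKM in shSCR samples, and so passed the filter through shSCR alone. Such a transcript can only come out lower. JAG1-002 and HES1-001 are the only listed transcripts of their genes, and NOTCH3-001 held 89.4% to 97.3% of NOTCH3 in every sample, so their values repeat those of the genes. NOTCH2-001 had 6.46, 4.79 and 4.92 FPKM in shPCAT1 samples, against 6.41, 7.69 and 8.78 FPKM in shSCR samples, and the short NOTCH2-006 had 1.04 to 1.28 FPKM in shPCAT1 and 0.592 to 1.49 FPKM in shSCR samples. In NOTCH2-001 shPCAT1 replicate 1 reached the level of shSCR replicate 1, and in NOTCH2-006 only shSCR replicate 3 lay below shPCAT1 values. Without shSCR replicate 3 limma still called 0 of the 20, against 0.42% of all transcripts. The other 7 transcripts had means of 0.334 to 0.855 FPKM and were not tested.

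The wider pathway was read from a list of 63 genes for ligand and receptor processing, nuclear cofactors and targets, of which 49 were in the table used here and 44 were tested. With all libraries limma called 0 of them, at an unadjusted p of at most 0.05 there were 3 higher and 3 lower, where 7.23% of all genes were higher and 10.0% lower, and the median log2 change was -0.13, against -0.05 for all genes. The groups did not overlap for 8 genes that were lower and 6 that were higher, where 17.7% and 14.8% of all genes tested did so. RFNG and DLL1, among these lower genes, passed the filter at a mean of 1 FPKM through their shSCR values alone. RFNG is also among the 3 genes lower by unadjusted p. Without shSCR replicate 3 the median was 0.03 and 2 genes, HES4 and APH1B, were called lower, where 4.4% of all genes were, a share near that of the list.

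HES4, a repressor of the HES family, had 10.2, 8.08 and 10.3 FPKM in shPCAT1 samples, against 17.7, 18.2 and 79.0 FPKM in shSCR samples. The groups were well apart even at the lower shSCR values. Its log2 change was -1.55 (SE 0.58, adjusted p = 0.263) with all libraries and -0.85 (SE 0.13, adjusted p = 0.0337) without shSCR replicate 3. The GC content of HES4 is 73.9%, and with the GC correction and all libraries the change was -0.84 (adjusted p = 0.0593). NRARP, a target that feeds back on the pathway, was listed at 0 in every library but shSCR replicate 3, where it was at 24.4 FPKM. NRARP passed the filter through that library alone and could only come out lower, and its change enters the median of the wider list. Of the 3 target genes tested, HES4 alone had a low unadjusted p.

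Among the 8 genes of receptor cleavage, APH1B, a subunit of gamma-secretase, had 5.95, 6.13 and 5.42 FPKM in shPCAT1 samples, against 9.34, 9.14 and 7.04 FPKM in shSCR samples. The shPCAT1 values all lay below the lowest shSCR value, that of replicate 3. The log2 change was -0.47 (adjusted p = 0.248) with all libraries, and -0.58 (adjusted p = 0.0341) without that replicate. With the GC correction and all libraries APH1B was called lower (-0.68, adjusted p = 0.0491). Its paralog APH1A had 35.1 to 44.5 FPKM in shPCAT1 and 48.7 to 53.2 FPKM in shSCR samples. Its change was -0.30 (adjusted p = 0.367) with all libraries, -0.26 without shSCR replicate 3 and -0.068 with the GC correction. Of the sugar transferases that modify the receptors, RFNG was at 0.721, 0.354 and 0.609 FPKM in shPCAT1 samples, against 1.63, 2.63 and 2.78 FPKM in shSCR samples. The change of RFNG was -1.09 (adjusted p = 0.107) with all libraries, -0.99 (adjusted p = 0.0678) without shSCR replicate 3 and -0.60 (adjusted p = 0.374) with the GC correction. RFNG (66.2% GC) was 0.29 higher on the log2 scale in shSCR replicate 3, against a median of 0.89 over genes above 60% GC. POGLUT1 was at 5.996, 3.51 and 4.62 FPKM in shPCAT1 samples, against 2.50, 1.29 and 0.398 FPKM in shSCR samples, a change of 1.33 (adjusted p = 0.181), and of 0.99 (adjusted p = 0.114) without shSCR replicate 3. RFNG and POGLUT1 thus lay on opposite sides, each without overlap between the groups. RFNG averaged 0.561 FPKM in shPCAT1 and 2.35 FPKM in shSCR samples, so it passed the filter through shSCR alone. A lower level of RFNG was therefore favoured by the filter.

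Of the 11 corepressors, HDAC2 had 52.3, 16.9 and 49.3 FPKM in shPCAT1 samples, against 14.7, 15.5 and 12.9 FPKM in shSCR samples, and shPCAT1 replicate 2 was near the shSCR values (adjusted p = 0.244, and 0.259 without shSCR replicate 3). TLE1 had 5.71, 5.73 and 5.64 FPKM in shPCAT1 samples, against 3.25, 1.26 and 4.01 FPKM in shSCR samples (adjusted p = 0.250, and 0.0972 without shSCR replicate 3). HDAC2 and TLE1 were above every shSCR value in all shPCAT1 samples. Of the 11 corepressors, 5 had a change above 0 and 6 below it with all libraries, with a median of -0.07. With the highest transcript in place of the sum, the change was 0.38 for TLE1 and 3.63 for HDAC2, against 0.88 and 1.25 for the sums. The remaining genes named by rule had unadjusted p above 0.05. Of the further ligands, DLL1 was at 0.602 to 0.972 FPKM in shPCAT1 and 1.05 to 1.93 FPKM in shSCR samples. DLL3 was at 7.79 to 9.55 FPKM in shPCAT1 and 5.96 to 7.65 FPKM in shSCR samples. These ligands lay on opposite sides of shSCR, with changes of -0.44 for DLL1 and 0.32 for DLL3. DLL1 averaged 0.774 FPKM in shPCAT1 and 1.43 FPKM in shSCR samples, so the filter favoured a lower level of this gene. Without shSCR replicate 3 the change was -0.30 for DLL1 and 0.32 for DLL3, and with the GC correction -0.13 for DLL1 and 0.84 for DLL3. DLL3 has a GC content of 67.4%, but its value in shSCR replicate 3 differed from replicates 1 and 2 by only -0.02. The correction thus moved a gene that did not follow the GC trend. Its SE went from 0.16 to 0.35 (adjusted p = 0.314 by limma). The ubiquitin ligase ITCH was at 13.4 to 13.6 FPKM in shPCAT1 and 6.91 to 13.2 FPKM in shSCR samples, and another ubiquitin ligase, DTX3L, at 3.91 to 10.5 FPKM in shPCAT1 and 7.68 to 12.5 FPKM in shSCR samples. The coactivators overlapped between the groups. EP300 was at 8.76 to 13.0 FPKM in shPCAT1 and 11.2 to 12.9 FPKM in shSCR samples, and SNW1 at 41.7 to 44.0 FPKM in shPCAT1 and 36.9 to 45.1 FPKM in shSCR samples.

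**Figure D5:**
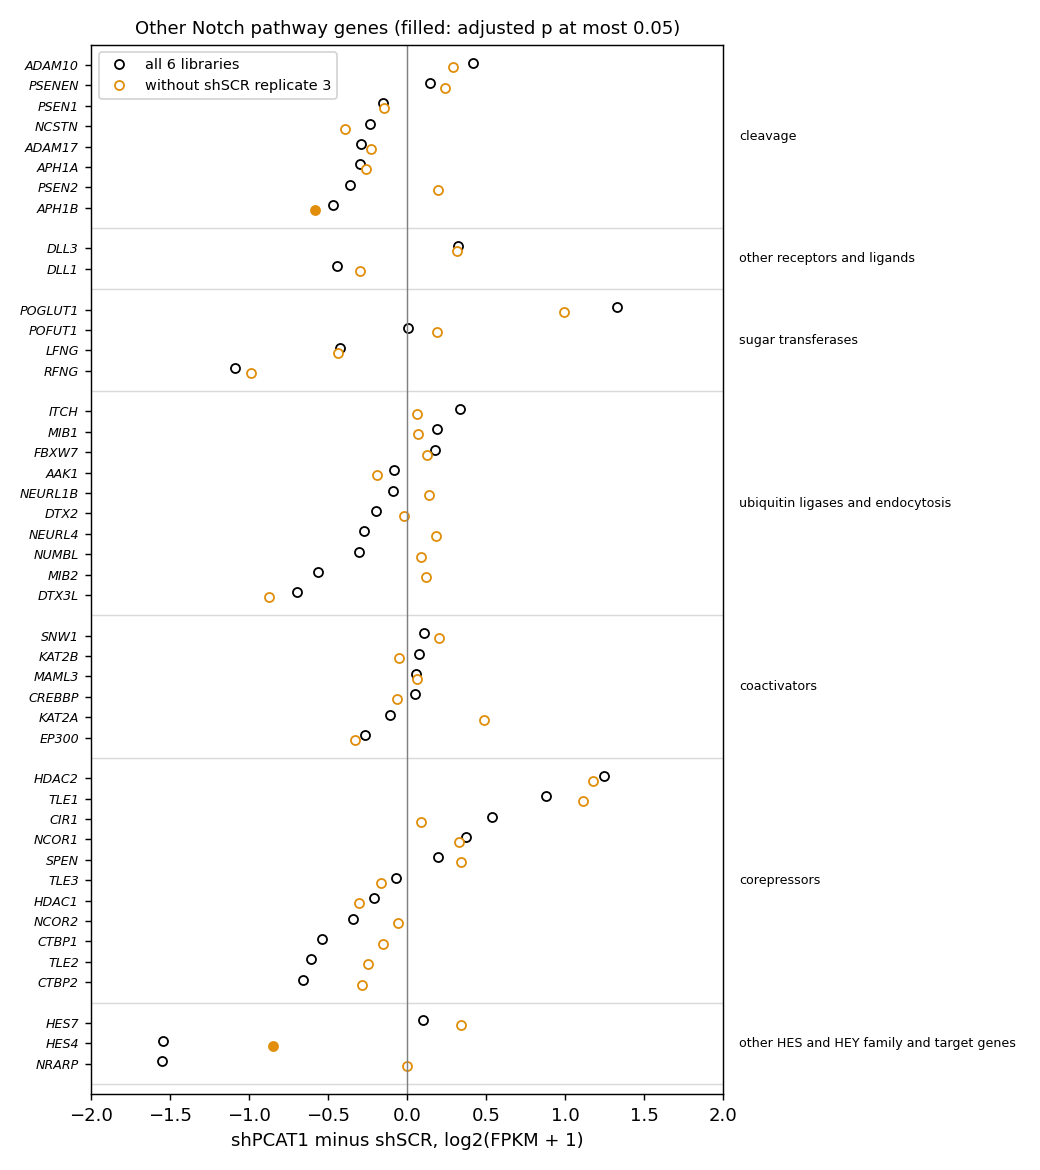
Log2 change (shPCAT1 minus shSCR, on log2(FPKM + 1)) of the 44 tested genes of the wider Notch list by class, with all 6 libraries and without shSCR replicate 3. Points lie on both sides of 0 in every class, and HES4 (-1.55 and -0.85) lies far below it in both fits. NRARP lies as low only with all 6 libraries (-1.56, and 0 without shSCR replicate 3).

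JAG1 had the smallest p among the members, and the genes most like it were sought among the 7821 genes whose mean reached 5 FPKM. By Pearson r of log2(FPKM + 1) over the 6 samples these were DUSP4 (r = 0.999), ELL3 (0.999), ABCC11 (0.997), MED15 (0.996) and MRPL14 (0.996). DUSP4, a phosphatase of MAP kinases, had 13.5, 13.2 and 13.4 FPKM in shPCAT1 samples, against 82.2, 75.1 and 61.6 FPKM in shSCR samples. ABCC11, a membrane transporter, had 1.28, 1.43 and 1.11 FPKM in shPCAT1 samples, against 18.1, 16.7 and 15.8 FPKM in shSCR samples. MED15, a subunit of Mediator, had 5.02 to 5.45 FPKM in shPCAT1 and 9.31 to 9.51 FPKM in shSCR samples. In each of the 5, as in JAG1, replicate 3 gave the lowest shSCR value. Their lower level in shPCAT1, and largely their order within shSCR, follow from the choice by likeness to JAG1. The correlations are a description over 6 samples in 2 groups, and the points share their libraries.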

How the data were processed

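RNA-seq of 3 shPCAT1 and 3 shSCR samples was analysed from a table of transcripts. The authors deposited FPKM values made with Ballgown. HISAT2 2.0.4 and hg19 stand in the submitters' processing notes, whereas the methods of the study give a different aligner and Ensembl GRCh37 models, and which was used is not settled here. Per the labels, libraries were stranded after poly(A) selection. The deposited columns of the authors' own comparison (group means, fold change, p-value and q-value) were not used. Depth is unknown, so no counting interval is given. The precision rests on the spread of 3 samples a group and, in limma, also on that of other genes.

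FPKM were summed by gene name, genes averaging 1 FPKM or more were kept, and log2(FPKM + 1) was fitted with limma 3.58.1 in R 4.3.3 (trend and robust, no covariate). Fold changes on this scale understate those of low genes. Benjamini-Hochberg adjustment ran over all genes or transcripts tested, with calls at 0.05. The fit was also run on simulated data with independent noise of equal spread in all libraries. That run does not cover a library that deviates as shSCR replicate 3 does. GC content is that of the listed transcripts (GENCODE models on GRCh37) or, for 81 genes, of the gene of that name. The GC correction subtracted from each library a loess curve (span 0.5) of its deviations on GC content. Genes were named by rule: every member, its transcripts with a mean of at least 1 FPKM, called genes of the wider list and the 2 of smallest p in each of its 7 classes, and the 5 genes most like the member of smallest p. Members and lists were chosen with earlier results of these data known. Alternatives were a pseudocount of 0.1, no filter or one at 5 FPKM, upper quartile and quantile scaling, the replicate number as a block, a plain limma fit, the highest transcript in place of the sum, the GC correction and each sample left out. The GC correction without shSCR replicate 3 was chosen after seeing the data. Coordinates of genes are those of the highest transcript in the authors' table. Some cell type markers are not reported here, and the marker sums leave them out.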

Additional observations from a re-analysis of the deposited data

How the results depend on the processing

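With all 6 libraries 0 of the Notch genes tested, and 0 of their transcripts, were called under each pseudocount, filter, scaling, block and GC setting run (GC settings on genes alone). Leaving out 1 sample gave 0 to 2 called Notch genes and 0 to 2 of the wider list, with 2 in each only without shSCR replicate 3. The GC correction called 1 of the wider list (APH1B), and with shSCR replicate 3 also left out it called 2 Notch genes and 2 of the wider list. Over all genes, 95 calls became 56 with a pseudocount of 0.1, 53 with a filter at 5 FPKM, 16 with the highest transcript, 189 with the GC correction, 704 with it and without shSCR replicate 3, and 4 to 869 with 1 sample left out. Over all transcripts, 20 calls became 9 with the pseudocount of 0.1, 13 with no filter, 5 with the filter at 5 FPKM and 1 to 86 with 1 sample left out. The replicate block left 2 calls over all genes, with or without the GC correction, and 0 over all transcripts. Deviations of same-numbered samples correlated at -0.024, -0.014 and 0.021, and 1 of the 3 shPCAT1 samples correlated best with its own number. These values show no pairing by number, but with 3 samples a group they cannot exclude it. The labels do not say whether samples were paired. JAG1 (-0.59 to -0.56 with 1 sample left out), NOTCH3 (-1.17 to -0.71), NOTCH2 (-0.48 to -0.33) and HES1 (-0.39 to -0.21) were lower in shPCAT1 under each setting, and MAML1 (0.10 to 0.78) was higher. Signs turned for the other 5, with ranges for 1 sample left out of -0.34 to 0.038 for NOTCH1, -0.47 to 0.51 for JAG2, -1.13 to 0.048 for HES6, -0.50 to 0.15 for NUMB and -0.33 to 0.41 for RBPJ. The GC correction, with or without the replicate block, gave 0.21 for NOTCH1, 0.38 for JAG2, -0.34 for RBPJ and -0.016 for SNW1. The GC correction without shSCR replicate 3 gave 0.17 for NOTCH1, 0.64 for JAG2, 0.18 for HES6, -0.51 for RBPJ, -0.080 for ITCH and 0.12 for NRARP. Without that replicate NRARP was listed at 0 in every library, so its 0.12 is the subtracted curve and not a level. JAG2 was at 0.041 under upper quartile scaling, 0.042 with the highest transcript and 0.069 under quantile normalization, and APH1A at 0.34 with the highest transcript. Of transcripts, signs turned under quantile normalization in HES6-001 (0.0040), JAG2-002 (0.0078) and NUMB-001 (-0.019), under the pseudocount of 0.1 in HES6-008 (0.050), NOTCH2-006 (0.034), NUMB-003 (0.054) and NUMB-004 (0.021), and under upper quartile scaling in NOTCH2-006 (0.020). With 1 sample left out they ranged from -0.37 to 0.38 for HES6-001, -0.78 to 0.24 for HES6-007, -0.88 to 0.38 for HES6-008, -0.28 to 0.36 for JAG2-001, -0.57 to 0.78 for JAG2-002, -0.34 to 0.038 for NOTCH1-001, -0.22 to 0.11 for NOTCH2-006, -0.038 to 0.22 for NUMB-001, -0.70 to 0.32 for NUMB-003, -0.65 to 0.42 for NUMB-004, -0.11 to 0.65 for RBPJ-030 and -0.57 to 0.39 for RBPJ-201. The share of JAG2-002 ranged from -9.69 to 7.26 percentage points, and that of NUMB transcripts with the long exon from -16.0 to 13.95. With transcripts of at least 1 FPKM alone, the share of NUMB transcripts without the exon differed by -2.87 points. Apart from that of NRARP, the cause of these turns was not tested. The depth is unknown, and each group has 3 samples.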
